A study of Mus musculus with 4 samples.

Results

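The 39 protein-coding genes of the 4 Hox clusters were described in sorted epithelial cells of the young mouse prostate. Members were all genes whose mouse symbol is Hox, a cluster letter (a to d) and a number. They make up 39 of the 49671 genes in the deposited table, with 11 genes in the Hoxa cluster on chromosome 6, 10 in Hoxb on chromosome 11, 9 in Hoxc on chromosome 15 and 9 in Hoxd on chromosome 2. RNA was sequenced from 2 libraries of basal cells (EpCAM high, CD49f high) and 2 libraries of luminal cells (EpCAM high, CD49f low), all sorted from prostate tips of untreated CD-1 mice at postnatal day 10 to 13. The authors' methods name males of mixed background, the ventral lobe of a number of mice, and an age range that ends before day 13. No transgene or engineered allele is named for these mice. Cells bearing CD45, CD31 or CD140a, which mark blood, endothelial and mesenchymal cells, were removed at the sort. The libraries are called basal replicates 1 and 3 and luminal replicates 3 and 2, after their labels, which do not say whether they came from separate animals, so p-values measure only the spread between these samples.

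Hox genes encode homeodomain transcription factors that give cells their position along the head-to-tail axis. They sit in a row in each cluster, and the order of the genes matches the order in which they are used along the body: paralog group 1 lies at the anterior end and group 13 at the posterior end. The prostate buds from the urogenital sinus, at the posterior end of the trunk, and posterior genes such as Hoxa13, Hoxb13 and Hoxd13 are known to act in its growth, branching and luminal differentiation.

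Marker genes were read before the Hox genes. All 6 basal markers, which include Krt5, Krt14 and Trp63, fell in luminal cells in limma at an adjusted p under 0.05, whereas 1 of 6 luminal markers rose in limma and 3 of 6 in edgeR. Krt5 read 18481 and 15824 in basal cells and 77 and 93 in luminal cells. Values are normalized counts, that is, reads per gene scaled by the authors to 20000000 aligned reads per library. The spacing of the values gave back the number of reads behind them: 3193238 and 3077853 gene reads in the basal libraries (replicates 1 and 3 in that order, as throughout) and 1036583 and 643241 in the luminal libraries (replicate 3, then replicate 2). A single read is therefore worth 6.27 and 6.50 units in the basal libraries and 19.4 and 31.2 in the luminal libraries, so that depth and cell type cannot be told apart for genes with few reads. The sort did not remove all mesenchymal RNA: each of 10 stromal markers was above 0 in every library. Their summed values were 112265 and 222303 in basal and 86954 and 214494 in luminal libraries. In edgeR 1 of the 10 was called, Dcn, a matrix proteoglycan gene. It read 45830 and 47724 in basal and 5770 and 20256 in luminal libraries (edgeR adjusted p = 0.0398, limma adjusted p = 0.143), lower in luminal cells as Hoxd13 and Hoxd11 were. Dcn was alone among the 10 in having both basal values on top, and the list's median limma log2 fold change was 0.16. Col1a1 read 17210 and 59670 in basal and 22886 and 56436 in luminal libraries. Pdgfra, which encodes CD140a, read 3307, 4144, 2575 and 8383. The 5 smooth muscle markers summed to 30255, 52272, 9887 and 60111 in the same order. The 5 endothelial markers, with 0 called, summed to 1535 and 1585 in basal and 581 and 1745 in luminal libraries, among them Pecam1, which encodes CD31, at 833, 637, 174 and 499, and the 4 immune markers summed to 795, 188, 194 and 218. Among markers of neighbouring epithelia, limma called 0 genes. The 4 urothelial genes summed to 163 and 149 in basal and 1201 and 1215 in luminal libraries, with Upk1a and Upk1b called in edgeR but Upk2 at 0 in 3 of the 4 libraries, and the 3 seminal vesicle genes summed to 0, 13, 309 and 62, with Svs4 called in edgeR. The part of any of these genes' cells in the Hox values was not tested. In bulk RNA, fewer cells of a kind and less RNA per cell cannot be told apart.

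Hox genes took similar shares of the reads in the 4 libraries. Of every 1000000 reads on genes, 288 fell on Hox genes in basal replicate 1 (95% Wilson interval 270 to 308) and 225 in basal replicate 3 (208 to 242). Luminal replicate 3 had 269 (239 to 303) and luminal replicate 2 had 241 (206 to 282). The luminal libraries lay between the basal libraries. These intervals cover counting error only. Behind them stand 921 and 691 Hox reads in basal and 279 and 155 in luminal cells.

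Most of those reads came from the posterior end of the clusters. Paralog groups 9 to 13 held 78.8% (76.1 to 81.3, Wilson interval), 85.1% (82.2 to 87.6), 84.6% (79.9 to 88.4) and 80.0% (73.0 to 85.5) of the Hox reads in the basal libraries and then the luminal libraries. The basal and luminal ranges overlapped. Ranked by level per kilobase (kb) of exon over the 4 libraries, the leading 8 genes of that average all belonged to groups 9 to 13: Hoxb13 at 452 normalized counts per kb, Hoxd13 at 318, Hoxa11 at 237, Hoxa13 at 175, Hoxa10 at 119, Hoxd10 at 94.9, Hoxb9 at 87 and Hoxd11 at 77.3. Hoxd8, at 45.6 per kb, was the highest gene outside those groups on that average. Library by library, 7 and 8 of the leading 8 were from groups 9 to 13 in basal cells and 7 and 6 in luminal cells. The exceptions were Hoxd8 in basal replicate 1 (91.5 per kb), Hoxd4 in luminal replicate 3 (59.0) and Hoxa2 and Hoxb3 in luminal replicate 2 (70.4 and 65.9). Within a library, the level per kb rose with paralog group only loosely (Spearman rho of 0.34, 0.44, 0.29 and 0.32 over 39 genes, which share neighbours and are not independent).

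**Figure D1:**
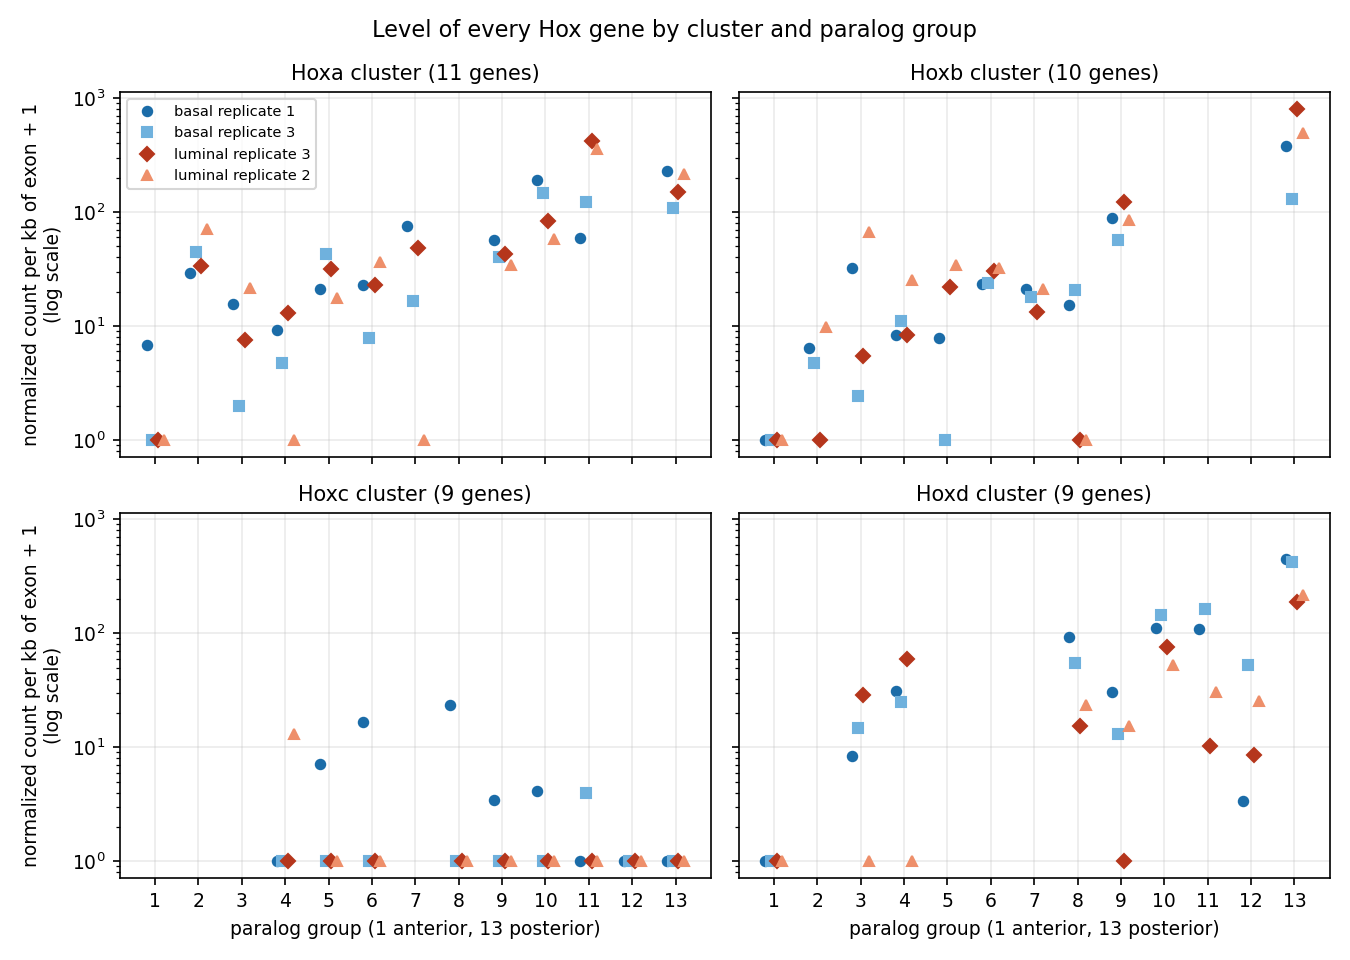
Normalized count per kb of exon plus 1 (log axis) against paralog group for the 11 Hoxa, 10 Hoxb, 9 Hoxc and 9 Hoxd genes, with a symbol for each of the 2 basal and 2 luminal libraries. The highest points stand at groups 10 to 13 in Hoxa, Hoxb and Hoxd, and 29 of the 36 Hoxc points sit at 1, which marks a value of 0.

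The Hoxc cluster was close to silent at this depth. Its 9 genes together had 21 and 1 reads in basal cells and 0 and 1 in luminal cells. In luminal replicate 3 the 0 reads allow up to 1.36% of its Hox reads (Wilson interval). Hoxc8, a gene of the mid-trunk and the highest of the cluster, read 63 in basal replicate 1, from 10 reads, and 0 in the other libraries, and Hoxc6 read 38, from 6 reads, in that same library only. Both values rest on a single library, which also had the most gene reads (3193238) and the highest immune marker sum (795). Whether either bears on these values was not tested. Hoxc13, the group 13 paralog known from hair and nails, was at 0 in all libraries, as were Hoxc12, Hoxb1 and Hoxd1. Of the 39 members, 33 and 27 had at least 1 read in the basal libraries, and 24 and 23 in the luminal ones. Brought to the reads of the shallowest library, the expected numbers were 24.7, 20.4, 21.1 and 23.0, so the gap between the cell types was not detectable at equal depth.

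The make-up of the Hox pool, in contrast, differed between basal and luminal cells by cluster. Hoxd genes held 38.3% (35.2 to 41.5, Wilson interval) and 54.0% (50.3 to 57.7) of the Hox reads in basal cells, but 18.3% (14.2 to 23.2) and 18.7% (13.4 to 25.6) in luminal cells. Hoxb genes moved the other way, from 23.6% (20.9 to 26.4) and 13.3% (11 to 16.1) in basal to 41.9% (36.3 to 47.8) and 38.7% (31.4 to 46.6) in luminal cells. Hoxa genes held 35.8%, 32.6%, 39.8% and 41.9%. The basal and luminal libraries did not overlap for any of these 3 clusters, though the Wilson intervals of Hoxa (32.8 to 39 and 29.2 to 36.1 in basal, 34.2 to 45.6 and 34.5 to 49.8 in luminal cells) did. Being shares within a library, these values do not depend on how libraries were scaled.

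On the scale of summed normalized counts per kb, Hoxd read 828 and 882 in basal cells and 380 and 356 in luminal cells, or 855 ± 38 against 368 ± 16.9 (mean ± SD, n = 2 each), a luminal to basal ratio of 0.430. Hoxb read 573 and 260 in basal and 1002 and 763 in luminal cells, 416 ± 221 against 883 ± 169 (SD, n = 2 each), a ratio of 2.12. Hoxa read 706, 527, 839 and 802, a ratio of 1.33. The difference was larger than the spread between replicates for Hoxd and Hoxb alike, although for Hoxb the basal libraries differed by more than 2-fold. With 2 libraries against 2, a two-sided exact permutation test cannot give a p below 0.333, which is the value reached by all 3 clusters. The ratio of Hoxb to Hoxd per kb was 0.691 and 0.295 in basal and 2.64 and 2.14 in luminal cells.

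**Figure D2:**
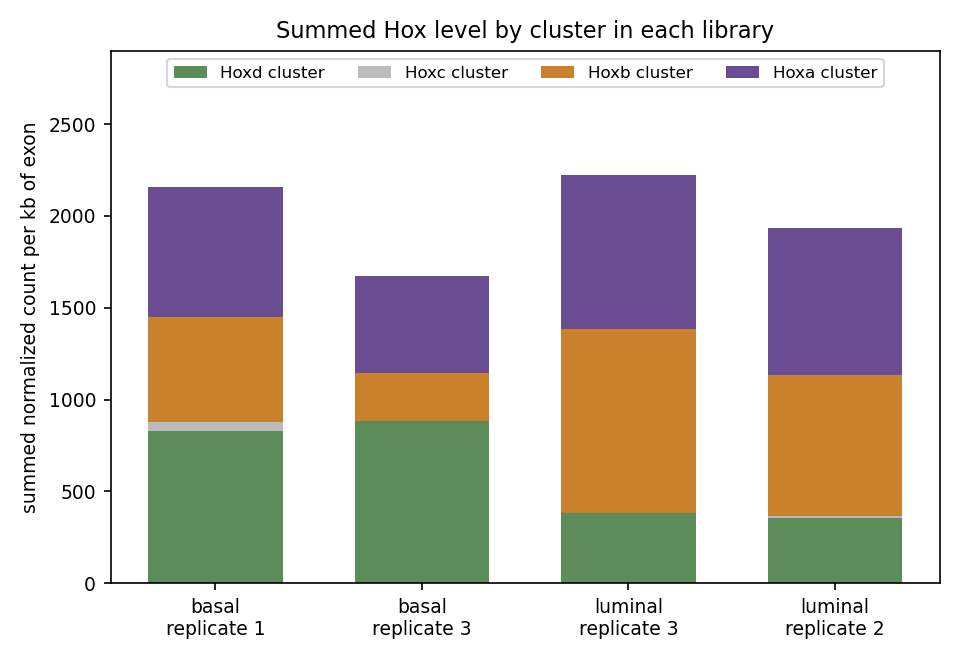
Summed normalized count per kb of exon in each of the 4 libraries, stacked by Hox cluster, without error bars since each bar is a single library. The Hoxd share of the bar is tall in both basal libraries (828 and 882) and short in both luminal libraries (380 and 356), and the Hoxb share is tallest in the luminal libraries (1002 and 763).

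The Hoxb and Hoxa differences rested largely on a single gene each. Without Hoxb13, the other Hoxb genes summed to 195 and 130 per kb in basal and 195 and 269 in luminal cells, so the groups overlapped and the ratio fell from 2.12 to 1.42. Without Hoxa11, the other Hoxa genes summed to 648 and 405 in basal and 424 and 448 in luminal cells, which overlapped, at a ratio of 0.828. Without Hoxa13 instead, they summed to 478 and 419 in basal and 690 and 588 in luminal cells, without overlap, at a ratio of 1.42. In the Hoxd cluster, without Hoxd13 its other genes still summed to 379 and 461 in basal and 193 and 142 in luminal cells, a ratio of 0.399. These genes were left out after their values were seen.

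Gene by gene, 25 of the 39 members passed the filter on low values (every library of a group at 10 or more and that group's average at 20 or more), 9 in Hoxa, 8 in Hoxb, 8 in Hoxd and 0 in Hoxc. Since a gene may pass through a single group, counts below cover those 25 only. In limma on log2 values with a pseudocount of 1, fitted across all 18737 genes that passed, 0 of 25 rose and 0 fell at an adjusted p under 0.05, where 0.256% of all genes rose and 0.438% fell (0.694% in either direction). At an unadjusted p under 0.05, 7 of 25 differed, 2 higher and 5 lower in luminal cells, against 18.5% of all genes (7.82% higher and 10.7% lower). In edgeR on the recovered reads, 1 member rose, Hoxa11 (all genes, 2.36%), and 1 fell, Hoxd11 (all genes, 2.70%; either direction, 5.06%). DESeq2 called 1 up and 1 down as well. It gave no adjusted p for some of the 25, such as Hoxb8 and Hoxd9, which it could therefore not call. Of the 13651 genes with an adjusted p, it called 2.97% higher and 3.11% lower (either direction, 6.09%). Over all 18737 genes these were 2.17% and 2.27%. By size alone, 5 of 25 were at 2-fold or more and 7 at 0.5-fold or less in luminal cells, where all genes gave 18.3% and 16.3%. Of those 5, Hoxa6 and Hoxb5 had 3 reads or fewer in every library, and without them 3 of 23 were at 2-fold or more. That cut was not made for all genes, so the 3 of 23 has no share of all genes beside it.

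By order of the libraries, 4 of 25 members had both luminal values above both basal values (Hoxa11, Hoxb5, Hoxb6 and Hoxb13) and 6 had both basal values above both luminal values (Hoxa10, Hoxb8, Hoxd8, Hoxd10, Hoxd11 and Hoxd13), against 23.6% and 27.3% of all genes. Taken over all clusters, these counts were near the background. Counted by cluster, with no test of the difference between clusters, they parted. Of the 8 Hoxd genes tested, 0 had both luminal libraries on top and 4 had both basal libraries on top, and 5 were at 0.5-fold or less. Of the 8 Hoxb genes, 3 had both luminal libraries on top and 1 both basal libraries. Hoxb5 and Hoxb8 among these, and Hoxd9, Hoxb3 and Hoxa6 among those past 2-fold, passed the filter only through the group where they were high. With every library required to be at 10 or more, the counts were 0 and 4 of 4 in Hoxd and 2 and 0 of 5 in Hoxb, where all 14953 genes gave 20.8% and 28.3%. The median log2 fold change, luminal minus basal, was -1.98 in Hoxd, 0.57 in Hoxb and 0.19 in Hoxa, beside -0.22 for all 25 members and -0.10 for all genes tested. In edgeR the medians were -1.02, 0.65 and 0.13, and 0.13 for all 25 members, so the Hoxd median was nearer 0 and that of all members changed sign. Under the stricter filter the limma medians were -1.54, 0.53 and -0.07, so that of Hoxa changed sign.

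**Figure D3:**
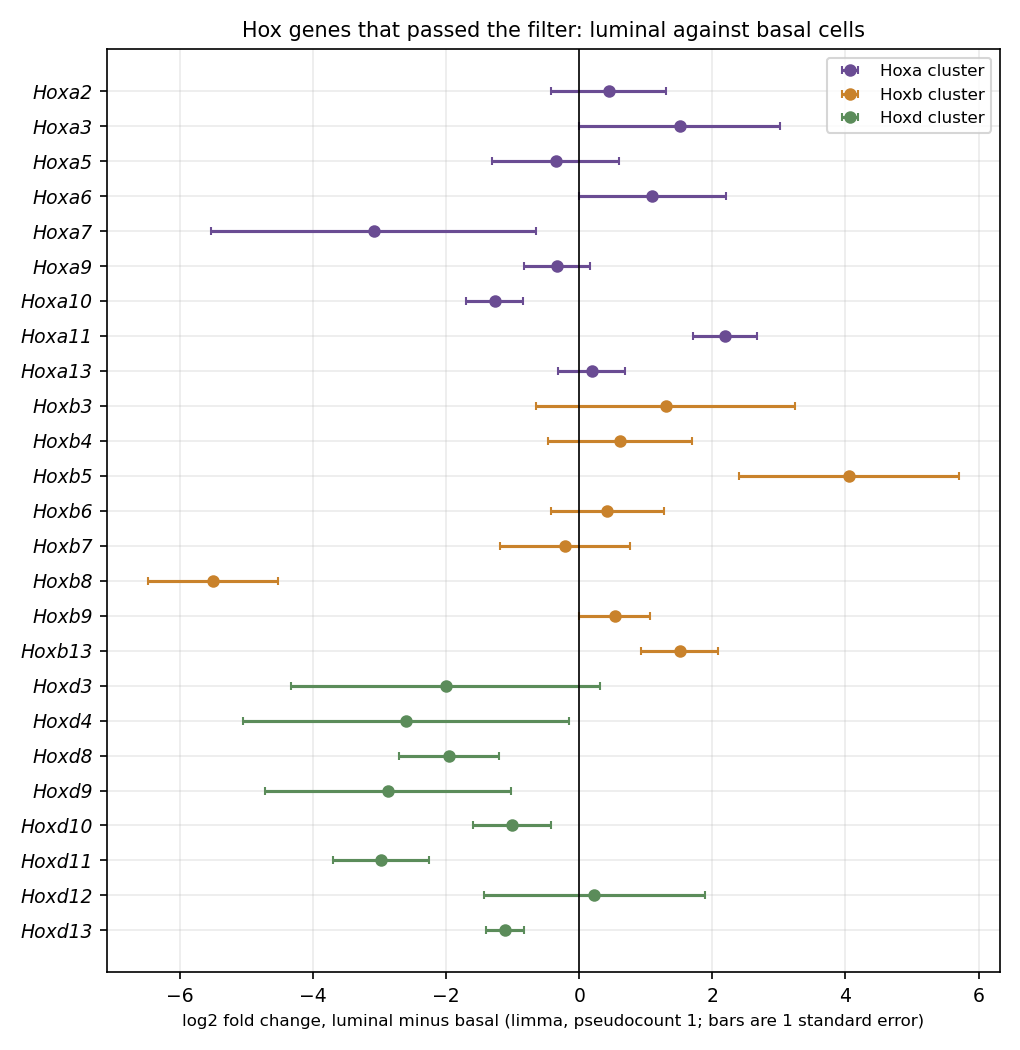
Log2 fold change, luminal minus basal, of the 25 Hox genes that passed the filter (limma, pseudocount 1, bars are 1 standard error), in cluster and paralog order with a colour for each cluster. Of the 8 Hoxd genes 7 lie left of 0 (6 in edgeR, where Hoxd3 and Hoxd4 turn to the right and Hoxd12 to the left), of the 8 Hoxb genes 6 lie right of 0, and the 3 widest bars belong to Hoxa7, Hoxd3 and Hoxd4, each at 0 in a luminal library, where the estimate depends on the pseudocount.

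Among the group 13 genes, the ratio of Hoxb13 to Hoxd13 differed between the basal and the luminal libraries, though the ratio was not tested. Neither gene was called by limma, edgeR or DESeq2. Hoxb13 (ENSMUSG00000049604, chr11:96194316-96197447, GRCm38), which works with the androgen receptor in luminal prostate cells and lies alone, 74009 bases from Hoxb9, read 833 and 286 in basal and 1781 and 1091 in luminal cells. Both luminal values were above both basal values, which themselves lay far apart. The means were 560 ± 387 and 1436 ± 488 (SD, n = 2 each), and limma gave a log2 fold change of 1.51 ± 0.58 (SE) with adjusted p = 0.255, so the difference did not pass. Leaving out basal replicate 3 gave 0.74 and leaving out basal replicate 1 gave 2.28 on the same scale. Counting error on the summed reads, 177 basal and 127 luminal, gave a ratio of 2.68 (exact 95% interval 2.12 to 3.38), which leaves out the spread between libraries. Within each cell type, the library with the lower stromal marker sum, basal replicate 1 and luminal replicate 3, had the higher Hoxb13 value. The part of those cells in the result was not tested.

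Hoxd13 (ENSMUSG00000001819, chr2:74668310-74671599), known from digits and the urogenital tract, read 1115 and 1046 in basal and 465 and 530 in luminal cells. Its replicates lay close together and the groups did not overlap. The means were 1081 ± 48.8 and 498 ± 46.0 (SD, n = 2 each), with a limma log2 fold change of -1.12 ± 0.28 (SE), adjusted p = 0.109, and an edgeR adjusted p of 0.120. It was the highest Hox gene per kb in both basal libraries, and Hoxb13 was the highest in both luminal libraries. Per kb, the ratio of Hoxb13 to Hoxd13 was 0.841 and 0.308 in basal and 4.31 and 2.32 in luminal cells, on either side of 1.

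Hoxa13 (ENSMUSG00000038203, chr6:52257694-52260880), which acts with Hoxd13 in the limb and urogenital sinus, read 564 and 266 in basal and 368 and 530 in luminal cells. The groups overlapped, and the limma log2 fold change was 0.19 ± 0.50 (SE), adjusted p = 0.862, changing sign when basal replicate 3 (-0.35) or luminal replicate 2 (-0.07) was left out. Counting error alone put the luminal to basal ratio at 1.03 (0.689 to 1.49). Summed per kb, the group 13 genes read 1055 and 659 in basal and 1143 and 922 in luminal cells, which overlapped. Of that sum, Hoxd13 made up 42.6% and 64.0% in basal and 16.4% and 23.1% in luminal cells, whereas Hoxb13 made up 35.8% and 19.7% in basal and 70.6% and 53.6% in luminal cells.

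The group 11 paralogs showed the sharpest opposition. Hoxa11 (ENSMUSG00000038210, chr6:52242106-52245810), known from kidney, limb and the female reproductive tract, read 132 and 279 in basal and 949 and 810 in luminal cells. Both luminal values were well above both basal values. The means were 206 ± 104 and 880 ± 98.3 (SD, n = 2 each), and the log2 fold change was 2.19 ± 0.48 (SE) in limma, adjusted p = 0.0790. In edgeR on recovered reads it was 2.11 with adjusted p = 0.0255, over 21 and 43 basal and 49 and 26 luminal reads. Over 14 alternatives the log2 fold change ran from 1.65 to 2.72 and the adjusted p from 0.0182 to 0.342.

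Hoxd11 (ENSMUSG00000042499, chr2:74679557-74687016), which acts with Hoxa11 in the forearm and kidney, read 457 and 682 in basal and 39 and 125 in luminal cells. Both luminal values were far below both basal values. The means were 570 ± 159 and 82.0 ± 60.8 (SD, n = 2 each), with a limma log2 fold change of -2.98 ± 0.73 (SE), adjusted p = 0.0988, and an edgeR log2 fold change of -2.91 with adjusted p = 0.0240. The luminal values rest on 2 and 4 reads, where the basal rate would have given 47.7 in all. Counting error put the ratio at 0.126 (exact 95% interval 0.0456 to 0.279). Over 14 alternatives the log2 fold change ran from -3.81 to -2.15 and the adjusted p from 0.0240 to 0.592. Per kb, the ratio of Hoxa11 to Hoxd11 was 0.532 and 0.753 in basal and 44.8 and 11.9 in luminal cells.

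**Figure D4:**
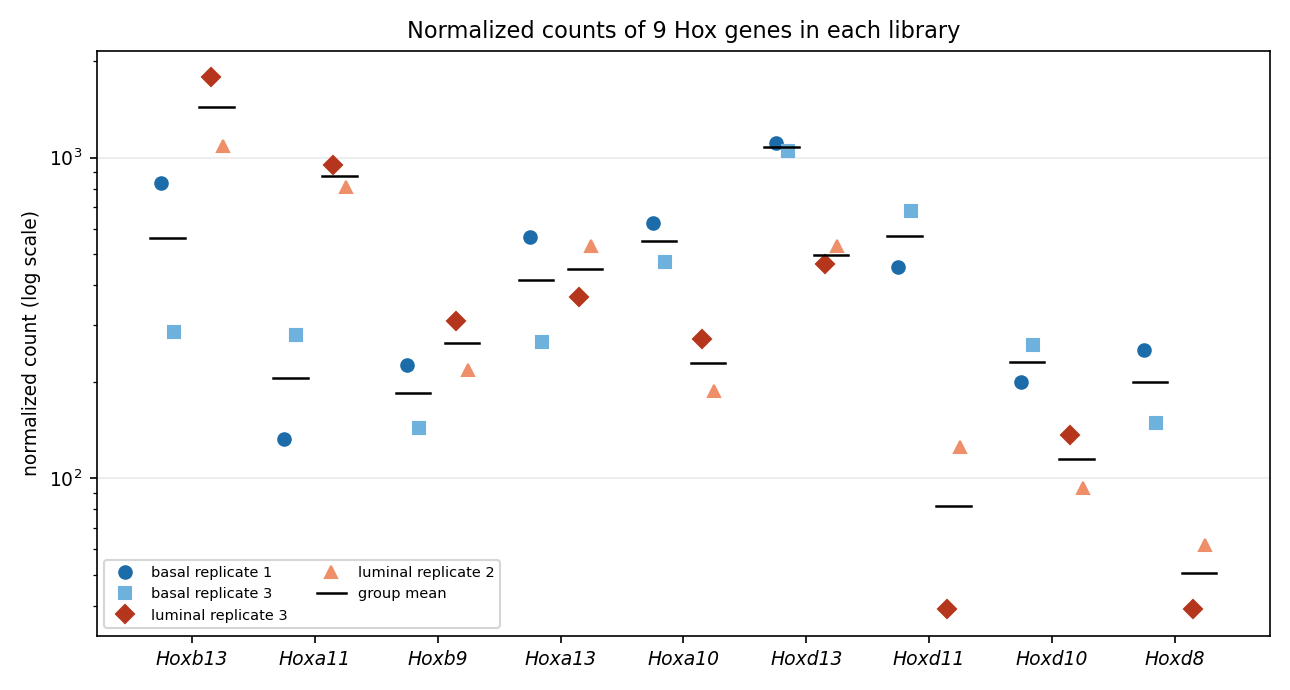
Normalized count (log axis) of 9 Hox genes in the 2 basal and 2 luminal libraries, with a bar at each group mean (n = 2). Hoxb13 and Hoxa11 are higher in both luminal libraries, Hoxa10, Hoxd13, Hoxd11, Hoxd10 and Hoxd8 are higher in both basal libraries, and Hoxb9 and Hoxa13 overlap.

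The promoters of the paralogs that parted, Hoxa11 and Hoxd11, and of the pair Hoxa13 and Hoxd13, of which the second was lower in both luminal libraries, are given below as the 250 bases before the annotated start (RefSeq, GRCm38.p6, written 5′ to 3′ on the gene's own strand). Capitals mark CG dinucleotides, the sites of DNA methylation. Hoxa11 lies on the minus strand at chr6:52245811-52246060, Hoxa13 on the minus strand at chr6:52260881-52261130, Hoxd11 on the plus strand at chr2:74679308-74679557 and Hoxd13 on the plus strand at chr2:74667975-74668224. The Hoxd13 window ends 85 bases short of the start given above for that gene, which comes from GENCODE. For Hoxd11 the more upstream of its 2 annotated starts is shown.
Hoxa11: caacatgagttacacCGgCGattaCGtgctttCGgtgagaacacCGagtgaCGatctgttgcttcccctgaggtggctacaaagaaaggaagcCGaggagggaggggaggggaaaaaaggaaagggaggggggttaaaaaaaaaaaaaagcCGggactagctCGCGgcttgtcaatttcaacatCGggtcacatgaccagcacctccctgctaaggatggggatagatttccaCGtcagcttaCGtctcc
Hoxa13: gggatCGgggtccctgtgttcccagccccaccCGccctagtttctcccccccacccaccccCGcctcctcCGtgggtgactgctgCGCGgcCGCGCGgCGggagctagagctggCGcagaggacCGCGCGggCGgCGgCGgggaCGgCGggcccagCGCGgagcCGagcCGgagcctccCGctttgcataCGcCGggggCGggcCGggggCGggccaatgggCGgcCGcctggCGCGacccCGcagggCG
Hoxd11: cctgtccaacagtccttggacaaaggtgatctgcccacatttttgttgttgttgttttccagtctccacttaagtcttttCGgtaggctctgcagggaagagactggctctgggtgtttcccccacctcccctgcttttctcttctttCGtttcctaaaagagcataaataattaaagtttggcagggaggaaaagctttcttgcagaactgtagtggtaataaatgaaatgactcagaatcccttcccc
Hoxd13: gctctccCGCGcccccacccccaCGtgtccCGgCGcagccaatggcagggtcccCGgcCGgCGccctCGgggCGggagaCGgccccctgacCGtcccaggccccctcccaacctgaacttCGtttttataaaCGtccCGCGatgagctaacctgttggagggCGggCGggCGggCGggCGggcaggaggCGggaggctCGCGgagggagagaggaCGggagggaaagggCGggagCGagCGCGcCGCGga
The 4 windows held 13, 35, 2 and 31 CG dinucleotides, at a GC content of 52.0%, 80.0%, 44.8% and 74.4%. The other Hoxd11 window, at chr2:74682073-74682322, held 20 CG dinucleotides at a GC content of 60.4%. Each of the group 13 windows held more CG than each of the group 11 windows. A window was given for 22 of the 39 members (24 windows). The median over those 24 windows was 12.5 CG dinucleotides and a GC content of 58.6%, beside 6 and 52.4% over 32851 windows of 27025 genes. A ratio of observed to expected CG above 0.6 was found in 13 of 24 Hox windows (54.2%) and in 34.0% of all windows. The letters TATAAA, searched on both strands, stood in 4 of 24 Hox windows (16.7%), that of Hoxd13 among them, and in 12.4% of all windows. The letters CAATAAA, searched the same way, stood in 1 of 24 (Hoxb8, in a window that also held TATAAA) and in 4.20% of all windows. The letters AGAACA, the recurring unit of an androgen response element, stood in 2 of 24 (Hoxa11 and Hoxa9, 8.33%) and in 16.1% of all windows. These matches are letters in a window, not sites at which binding was measured. No window was used for Hoxb13.

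Hoxa11 and its neighbour Hoxa10 were ordered in opposite directions, though Hoxa10 passed in no test. Hoxa10, known from the uterus and from prostate lobe shape, lies 1251 bases from Hoxa11. It read 626 and 474 in basal and 271 and 187 in luminal cells, without overlap (limma log2 fold change -1.27 ± 0.42 SE, limma adjusted p = 0.205). It and Hottip, Evx2, Hoxd8 and Hoxb8 below are named outside the fixed rule, after their values were seen. Per kb, the ratio of Hoxa11 to Hoxa10 was 0.301 and 0.842 in basal and 5.01 and 6.19 in luminal cells. Hoxa9, a neighbour on the other side that is also active in blood stem cells, read 313 and 221 in basal and 232 and 187 in luminal cells, and its groups overlapped.

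The Hoxa11 exons overlap those of Hoxa11os, an antisense noncoding RNA, over 35.0% of their length, and strand use in counting is not stated, so reads in the overlap may have been shared or dropped. Hoxa11os itself read 376 and 539 in basal and 2285 and 1683 in luminal cells, with a limma log2 fold change of 2.12 ± 0.33 (SE), adjusted p = 0.0659, and an edgeR adjusted p of 0.0058. The ratio of Hoxa11os to Hoxa11 reads was 2.86 and 1.93 in basal and 2.41 and 2.08 in luminal cells. Both partners were higher in both luminal libraries and their ratio overlapped between cell types. Hottip, a noncoding RNA that starts 1919 bases beyond Hoxa13, read 19 and 6 in basal and 136 and 62 in luminal cells (limma adjusted p = 0.239).

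Hoxd10 and Hoxd8 were lower in both luminal libraries, neither past the test, and the groups overlapped for Hoxd12, Hoxd9, Hoxd4 and Hoxd3. Hoxd10, which acts in limb and motor neurons, read 200 and 260 in basal and 136 and 93 in luminal cells (limma log2 fold change -1.01 ± 0.59 SE, adjusted p = 0.417). Hoxd8 read 251 and 149 in basal and 39 and 62 in luminal cells, the latter from 2 reads each, so only a counting ratio is given, 0.237 (exact 95% interval 0.0626 to 0.638; limma adjusted p = 0.259). Hoxd12, between Hoxd13 and Hoxd11, read 6 and 130 in basal and 19 and 62 in luminal cells, so that the basal libraries alone spanned the whole range. Hoxd9 read 63, 26, 0 and 31. Hoxd3 and Hoxd4 read 31, 58, 116 and 0, and 88, 71, 174 and 0, at the anterior end, but 62.8% and 52.3% of their exon bases are shared with each other or with overlapping transcripts, so their values are uncertain. Their group means were higher in luminal cells (58 against 44.5 and 87 against 79.5), as were their edgeR log2 fold changes (0.59 and 0.35), whereas limma gave -2.01 and -2.60 through the 0 in luminal replicate 2. The exons of Hoxd11 and Hoxd10 share 10.8% and 5.73% of their bases with the transcript Gm28309. Evx2, a homeobox gene 8709 bases beyond Hoxd13, read 100 and 234 in basal and 19 and 31 in luminal cells (limma adjusted p = 0.223), again with both basal values on top.

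In the Hoxb cluster the genes other than Hoxb13 mostly overlapped between cell types. Hoxb9, which acts in the thorax and mammary gland, was next in level and read 225 and 143 in basal and 310 and 218 in luminal cells (limma log2 fold change 0.53 ± 0.54 SE, adjusted p = 0.614). Hoxb6 read 44 and 45 in basal and 58 and 62 in luminal cells, and Hoxb5 read 19 and 0 in basal and 58 and 93 in luminal cells, each luminal value resting on 2 or 3 reads. Hoxb8 read 38 and 52 in basal cells, from 6 and 8 reads, and 0 in both luminal libraries. At the basal rate 3.75 luminal reads would have been seen, and counting error allows a luminal to basal ratio of up to 1.13, so a difference was not detectable beyond counting error. Its limma adjusted p was 0.0688, from 2 luminal values of 0 and a pseudocount, and ran from 0.00047 (without basal replicate 3) to 0.228 over the alternatives, with 0.222 in edgeR. Hoxb3 read 132, 6, 19 and 280, a spread within each cell type far wider than between them, and shares 52.9% of its exon bases with the antisense Hoxb3os.

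Anterior and central genes were mostly low, apart from the exceptions by library given above. The 8 genes of groups 1 to 3 had at most 21 reads in any library. The 11 Hoxa, Hoxb and Hoxd genes of groups 4 to 8 had at most 40, with a median level of 21.5 per kb. Over both cell types, Hoxa2, a hindbrain and branchial arch gene, was the highest of groups 1 to 3 at 43.8 per kb, and read 50, 78, 58 and 125. Hoxa5, a gene of lung and trunk, read 38, 78, 58 and 31. Hoxa7 read 213, 45, 136 and 0. None of these separated the cell types. Of the 39 members, 16 share exon bases with another annotated gene, 7 of them over more than 20%, among them Hoxa3, Hoxa7 and Hoxb2 here. In all, 14 members had 3 reads or fewer in every library, and another 10 had 3 or fewer in both luminal libraries. No fold is given singly for any of the 14, but Hoxa6 and Hoxb5 passed the filter and so entered the counts, medians and plot of fold changes.

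HOX proteins bind DNA with TALE-class cofactors such as the MEIS proteins, and 8 of 9 cofactor genes were tested. In limma, edgeR and DESeq2 0 of 8 were called, though DESeq2 gave Meis3 no adjusted p, and 0 had an unadjusted limma p under 0.05. Meis1 read 1591 and 1598 in basal and 1433 and 1714 in luminal cells, and Meis2 read 1472 and 2306 in basal and 426 and 2555 in luminal cells. Meis1 was the steadier of them, whereas Meis2 was lowest in luminal replicate 3, the library with the lowest smooth muscle and stromal marker sums. What those cells contributed was not tested. Polycomb and trithorax complexes keep Hox clusters repressed or open, and 0 of their 34 genes were called by limma, edgeR or DESeq2, with 7 of 34 at an unadjusted limma p under 0.05 against 18.5% of all genes. DESeq2 gave Phf19 and Cbx2 no adjusted p and so could not call them. The highest were the methyltransferase genes Kmt2c, which read 11135 and 10172 in basal and 13786 and 13618 in luminal cells, Kmt2d (11204, 9510, 10126 and 10034) and Kmt2a (9845, 9510, 7919 and 8383). Of the 20 noncoding and other genes in or beside the clusters that were in the table, 11 were tested, 0 were called in limma and 1, Hoxa11os, rose in edgeR and DESeq2. Some of the 11, such as Hottip, had no adjusted p in DESeq2. The next highest of these were the flanking genes Skap2, which read 326, 240, 252 and 717, and Mtx2, which read 257, 318, 290 and 156, both with overlapping groups. The 6 ParaHox genes, relatives of the Hox genes, did not pass the filter, with summed values of 6, 0, 19 and 0.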

How the data were processed

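RNA from sorted prostate cells of 4 libraries (2 basal, 2 luminal) was sequenced by the submitters from Ovation Solo libraries. Their processing notes and methods name STAR, Picard and HTSeq, GRCm38 (mm10) and Ensembl release 87. The deposited values are a signal per gene, HTSeq counts that the authors scaled to 20000000 aligned reads and rounded. Counting mode, strand and duplicate removal are not given in the sources used here. The depth behind the values came from their spacing: 97.9% to 99.1% of low values (up to 60 reads) lay within 0.75 of a whole multiple of 1 read. Of all genes, 527 lay off that spacing in some library, 0 of them Hox genes. Symbols, coordinates and exon lengths came from GENCODE M21, a later release on the same build, which held 49326 of 49671 identifiers.

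Log2 values (pseudocount 1) were fitted with limma 3.58.1 (trended prior, Benjamini-Hochberg over 18737 genes). As alternatives, recovered reads were tested with edgeR 4.0.16 (quasi-likelihood) and DESeq2 1.42.0. The procedure was tested on simulated data. Only genes with higher average reads were changed there, so it does not measure power for genes with few reads. Full statistics went to members called by limma or edgeR, the 2 highest per kb in each cluster and group 13; from each companion list, to the 3 highest genes and those called. A cofactor gene under that rule is not reported here. Members, lists and rules were chosen with earlier results of these data known.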

Additional observations from a re-analysis of the deposited data

How the results depend on the processing

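No paired analysis was possible because the basal and luminal groups share only replicate number 3. The counts in limma of 0 higher and 0 lower became 1 and 1 in edgeR, in DESeq2 and under a stricter filter (every library at 10 or more; all genes 1.80% and 2.74%), and 1 lower without a trended prior (1.71%). Leaving out a library gave 0 to 1 higher and 0 to 3 lower (3 without basal replicate 3, where 3.90% of all genes were called lower, and 1 higher without luminal replicate 3, where 4.01% were called higher), with a lone library assumed to vary like the other group. The counts past 2-fold, 5 higher and 7 lower, became 14 of 35 lower with no filter (all genes 28.0%), 2 of 15 higher under the stricter filter (12.4%), 4 of 25 lower after rescaling to nuclear protein-coding genes (11.5%), and 2 and 2 of 25 at 4-fold (7.77% and 6.05%); leaving out a library gave 4 to 7 higher and 6 to 9 lower (all genes 19.5% to 26.8% and 17.0% to 23.4%). Under that rescaling the all-gene median went from -0.10 to 0.21 (log2) and the log2 ratios of the cluster sums from 0.41 to 0.73 (Hoxa), -1.22 to -0.90 (Hoxd) and 0.12 to 0.44 (all clusters), keeping the sign of each. Hoxd gave -1.11 over exon bases of no other gene. Without single libraries, Hoxa ran from 0.22 to 0.64, Hoxb from 0.62 (without basal replicate 3) to 1.76 (without basal replicate 1), Hoxd from -1.26 to -1.17 and all clusters from -0.05 to 0.31. Genes with over 3 reads numbered 23 and 21 in the basal and 11 and 11 in the luminal libraries, at unequal depth. Hoxa13 reversed without basal replicate 3 (-0.35) and without luminal replicate 2 (-0.07). Noncoding cluster genes had 1 call in edgeR and 1 in DESeq2; without single libraries these and the Polycomb and trithorax genes had 0 to 1 lower calls. The cause of these shifts was not tested. With 155 Hox reads in the shallowest library, differences in low genes were not detectable.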
